A study of Mus musculus with 6 samples.

Results

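The miR-106b-25 and miR-106a-363 clusters are a pair of related groups of miRNA hairpins, and their mature products were followed in kidneys of mice exposed to chronic intermittent hypoxia (CIH) and of control mice. The products were chosen by name, and all 10 were found among the 495 mature miRNAs of the count table. Of these, 6 come from the miR-106b-25 cluster (both arms of miR-106b, miR-93 and miR-25) and 4 from the miR-106a-363 cluster (miR-106a-5p, miR-18b-5p, miR-20b-5p and miR-363-3p). Small RNA of whole kidney tissue was sequenced in 3 CIH libraries and 3 Control libraries, from male balb/c mice of unstated age. In the CIH group the chamber oxygen fell to 6% within 60 seconds and returned to 21% within a further 60 seconds, 30 times an hour, 8 hours a day, for 8 weeks, and the Control group breathed room air in the chamber. No source used here ties a library to a single animal, so the p-values below describe the spread between libraries only. In bulk tissue, fewer cells of a type and less RNA per cell cannot be told apart.

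As background, a miRNA guides Argonaute to messenger RNAs mainly through its seed, bases 2 to 8 from the 5′ end, and miRNAs that share a seed share many predicted targets. Each hairpin can yield a product from its 5′ arm (5p) and one from its 3′ arm (3p), and usually one arm dominates. Both clusters are paralogs of the miR-17-92 cluster, a polycistron known for promoting proliferation and survival. The miR-106b-25 cluster is transcribed with its host gene Mcm7, which encodes a subunit of the replicative helicase and is driven by E2F factors. Its miR-106b and miR-93 are known to repress the cell cycle inhibitor Cdkn1a, and miR-25 the proapoptotic Bcl2l11.

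On GRCm38, as annotated by GENCODE release M21, the hairpins Mir106b, Mir93 and Mir25 lie within 498 bp of chromosome 5, from 138165321 to 138165818 on the minus strand. They fall in intron 13 of the 15-exon transcript Mcm7-201, while an exon of the shorter Mcm7-202 overlaps Mir93 and Mir25. The other cluster holds 6 hairpins within 875 bp of chromosome X, from 52741693 to 52742567 on the minus strand, in the order Mir106a, Mir18b, Mir20b, Mir19b-2, Mir92-2 and Mir363. The 5′ end of Mir106a overlaps the 3′ end of the neighbouring gene Kis2, on the same strand. The mature sequences of the 10 members (RefSeq, build GRCm38.p6) are shown because their seeds, in capitals, decide how they are grouped.
mmu-miR-106b-5p: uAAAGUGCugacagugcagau
mmu-miR-106b-3p: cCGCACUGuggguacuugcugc
mmu-miR-93-5p: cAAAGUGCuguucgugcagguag
mmu-miR-93-3p: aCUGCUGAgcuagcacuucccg
mmu-miR-25-3p: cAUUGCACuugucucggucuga
mmu-miR-25-5p: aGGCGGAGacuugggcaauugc
mmu-miR-106a-5p: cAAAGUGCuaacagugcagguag
mmu-miR-18b-5p: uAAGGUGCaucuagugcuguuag
mmu-miR-20b-5p: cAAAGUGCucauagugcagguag
mmu-miR-363-3p: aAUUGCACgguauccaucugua

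The seed AAAGUGC was shared by 4 members, 2 from each cluster, and AUUGCAC by miR-25-3p and miR-363-3p. The seed AAGGUGC of miR-18b-5p was held by 1 member, and the remaining 3 arms each had a seed of their own. Outside the members, the miRNAs of the table that carry these seeds and have a RefSeq sequence were the following, shown so that the bases in which they differ from the members can be seen.
mmu-miR-17-5p: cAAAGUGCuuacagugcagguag
mmu-miR-20a-5p: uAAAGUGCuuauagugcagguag
mmu-miR-18a-5p: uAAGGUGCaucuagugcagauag
mmu-miR-92a-3p: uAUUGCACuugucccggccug
mmu-miR-32-5p: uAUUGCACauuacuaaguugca
mmu-miR-92b-3p: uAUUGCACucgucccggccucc

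With positions counted from 1 at the 5′ end, mmu-miR-106a-5p differs from mmu-miR-17-5p by the single substitution U10A, and mmu-miR-20b-5p differs from it by U10C and C12U. From mmu-miR-20a-5p, mmu-miR-20b-5p differs by U1C and U10C. mmu-miR-18b-5p differs from mmu-miR-18a-5p by A18U and A20U, so fragments ending before base 18 are the same in both. mmu-miR-25-3p and mmu-miR-363-3p have 13 differences over 22 bases although their seeds are the same. How many mismatches the authors' alignment allowed, and how a read matching several names was counted, was not stated in the sources used here. The levels of mmu-miR-106a-5p, mmu-miR-20b-5p and mmu-miR-18b-5p are therefore uncertain to the extent that reads of a near copy were counted with them. mmu-miR-17-5p was 11.2 to 16.1 times as abundant as mmu-miR-106a-5p in the 6 libraries, and mmu-miR-18a-5p was 2.59 to 6.27 times as abundant as mmu-miR-18b-5p. Over the 6 libraries mmu-miR-20a-5p had 38454 counts and mmu-miR-20b-5p had 3990.

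Library totals ran from 5905653 to 7622445 counts in CIH and from 5431797 to 7741499 in Control, and levels are given as CPM, counts scaled to the TMM-adjusted library total. The 5 miRNAs listed as tubule markers summed to 230470 to 263481 CPM in CIH and 243050 to 318896 CPM in Control. No other tissue was measured beside them, so this sum describes the libraries and does not test their identity. Erythroid markers (4 of 4 in the table) summed to 5671 to 7302 CPM in CIH and 5442 to 6685 CPM in Control, and leukocyte markers (5 of 5) to 977 to 1097 CPM in CIH and 930 to 1084 CPM in Control. Both kinds of blood cell are known to express these clusters, and their part in the levels below was not tested. Of the erythroid markers mmu-miR-486a-5p was higher in every CIH library (log2 fold change 0.38, unadjusted p = 0.019 and adjusted p = 0.58 from edgeR). The other erythroid markers overlapped between the groups, with log2 fold changes from -0.09 to 0.09. The most abundant of them, mmu-miR-451a, was at 0.009. CIH replicate 1 stood apart in the urothelial mmu-miR-205-5p, at 0.50 CPM against 18.6 to 38.8 CPM in the other 5 libraries. CIH replicate 3 stood apart in the pancreatic mmu-miR-217-5p, with 28 counts against 0 to 4 in the others, and was the highest in the hepatic mmu-miR-122-5p, at 77.9 CPM against 17.4 to 48.1 CPM, and in the erythroid mmu-miR-451a. The tubule marker mmu-miR-204-5p was lower in every CIH library (log2 fold change -0.32, unadjusted p = 0.053 and adjusted p = 0.64 from edgeR). The other tubule markers, all more abundant, overlapped between the groups, with log2 fold changes from -0.26 to 0.10.

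In kidney the 6 measured products of the miR-106b-25 cluster together far exceeded the 4 members of the miR-106a-363 cluster. mmu-miR-19b-3p and mmu-miR-92a-3p, whose part from the second cluster is not known, are left out of this. mmu-miR-25-3p, the most abundant product of the first cluster, averaged 1600 ± 31.7 CPM in CIH and 1432 ± 25.6 CPM in Control (SD, n = 3 each). It stood at position 61 of 495 by mean level. mmu-miR-93-5p followed at position 71, with 950 ± 39.0 CPM in CIH and 875 ± 25.1 CPM in Control (SD, n = 3 each). Both arms of miR-106b came next, and then the members of the miR-106a-363 cluster in the order mmu-miR-20b-5p, mmu-miR-363-3p and mmu-miR-106a-5p. This order held in all 6 libraries for each pair of neighbours from mmu-miR-25-3p to mmu-miR-106a-5p, except between the arms of miR-106b, where the 3p arm was higher in 4 of 6. The 3 scarcest members, mmu-miR-93-3p, mmu-miR-18b-5p and mmu-miR-25-5p, were ordered differently between libraries, the first of each pair of neighbours being higher in 5 of 6. mmu-miR-18b-5p was 640-fold less abundant than mmu-miR-25-3p in mean CPM over the 6 libraries. All members are 21 to 23 nucleotides long, but adapter ligation is known to favour some small RNAs over others, so levels of different miRNAs compare only roughly.

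**Figure D1:**
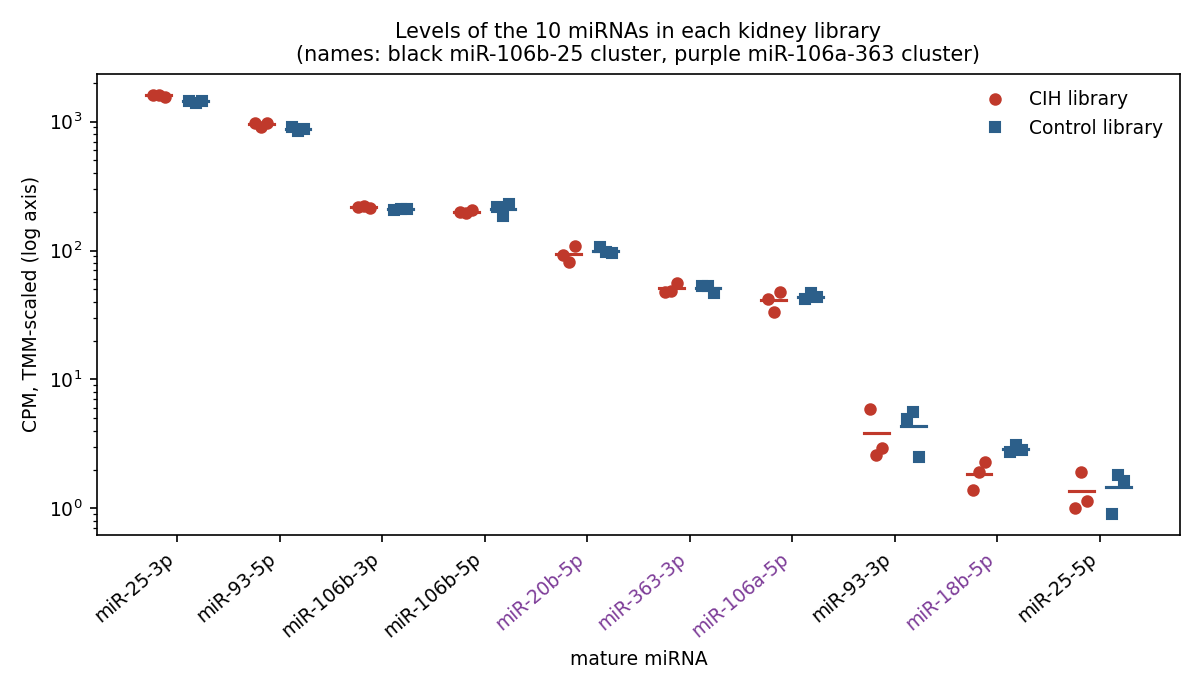
Level of each of the 10 miRNAs in CPM, on a log axis, in the 3 CIH libraries (circles) and the 3 Control libraries (squares), with a line at each group mean. Members ran from mmu-miR-25-3p at 1600 CPM in CIH and 1432 CPM in Control to mmu-miR-25-5p at 1.35 CPM in CIH and 1.45 CPM in Control.

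None of the 10 miRNAs was called different between CIH and Control kidneys. At an adjusted p under 0.05 edgeR's quasi-likelihood test called 0 of the 10, and 0.00% of all 495 miRNAs tested. At an unadjusted p under 0.05 it also found 0 of the 10, against 7.88% of all miRNAs (39 of 495). The study's own thresholds, an unadjusted p of at most 0.05 with a fold of at least 1.5, were applied to these edgeR values and not to the study's p-values. They were passed by 0 of the 10 and by 3.84% of all miRNAs. DESeq2 found 0 of the 10 and 29 of all miRNAs at an unadjusted p under 0.05, edgeR's exact test 0 and 35, and limma 0 and 35, and each found 0 of all miRNAs at an adjusted p under 0.05. The median log2 fold change was -0.07 over the 10 members and -0.003 over all 495 miRNAs, with 3 members positive and 7 negative. Ranges without overlap between the groups were seen in 4 of the 10, against 12.5% of all miRNAs. In 3 of these 4 every CIH library was above every Control library, which held for 5.25% of all miRNAs, and in 1 every CIH library was below, which held for 7.27%. Products of 1 transcript were among them, so these counts are not independent of each other.

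Among the guide strands of the miR-106b-25 cluster, mmu-miR-25-3p had 1621, 1615 and 1563 CPM in CIH kidneys, against 1447, 1402 and 1446 CPM in Control kidneys. Every CIH library was thus above every Control library, and replicates lay close together, with a coefficient of variation of 1.98% in CIH and 1.79% in Control beside 0.976% from counting error alone. The log2 fold change was 0.16 (standard error 0.094, adjusted p = 0.79 from edgeR), a ratio of 1.12 with a 95% interval of 0.966 to 1.29. The interval comes from edgeR's quasi-likelihood fit, which also draws on the spread of the other miRNAs and not on these 6 values alone. The common biological coefficient of variation over all miRNAs, 15.7%, was wider than the coefficients of variation given here but does not itself set the interval.

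mmu-miR-93-5p, a partner of miR-106b in seed, had 976, 905 and 969 CPM in CIH, against 900, 850 and 875 CPM in Control. The groups again did not overlap, although the lowest CIH library lay close to the highest Control library. The ratio was 1.09 (95% interval 0.932 to 1.26, adjusted p = 0.81 from edgeR). With library totals in place of TMM scaling the groups overlapped, since CIH replicate 2 had 892 CPM and Control replicate 1 had 895 CPM.

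mmu-miR-106b-5p, which has the same seed, had no such separation. It measured 199.8, 194 and 204 CPM in CIH, against 219, 184 and 229 CPM in Control, so that the CIH values lay inside the Control range. Its log2 fold change was -0.08 (standard error 0.12, adjusted p = 0.92 from edgeR). The other arm of the same hairpin, mmu-miR-106b-3p, measured 216, 222 and 213 CPM in CIH and 206, 209 and 209 CPM in Control. These ranges did not overlap, but the ratio was only 1.04 (95% interval 0.888 to 1.23, adjusted p = 0.92 from edgeR). For these 4 products the interval excluded a 1.5-fold change in either direction.

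The passenger strands had wider intervals. mmu-miR-93-3p had 47, 19 and 18 counts in CIH and 38, 31 and 17 in Control, with one high library in CIH and one low library in Control. mmu-miR-25-5p had 8, 14 and 7 counts in CIH and 7, 10 and 11 in Control. The ratio of CIH to Control was 0.893 for mmu-miR-93-3p (95% interval 0.498 to 1.60) and 0.956 for mmu-miR-25-5p (0.4999 to 1.83), and counting error alone gave a coefficient of variation of 18.8% for mmu-miR-93-3p and 32.4% for mmu-miR-25-5p. Both intervals include a 1.5-fold difference in either direction. The libraries of mmu-miR-93-3p varied by more than counting error, with a coefficient of variation of 47.7% in CIH and 37.4% in Control, while those of mmu-miR-25-5p varied by 36.1% in CIH and 33.0% in Control.

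In the miR-106a-363 cluster all 4 members had a negative log2 fold change, and in 3 of them its size was below its standard error. mmu-miR-20b-5p, the most abundant, had 92.2, 81.8 and 108 CPM in CIH kidneys, against 105.9, 97.6 and 94.8 CPM in Control kidneys. mmu-miR-363-3p, which carries the seed of miR-25, reached 47.9, 48.7 and 55.9 CPM in CIH and 53.5, 53.2 and 46.6 CPM in Control. mmu-miR-106a-5p reached 42.3, 33.3 and 47.5 CPM in CIH and 42.0, 46.5 and 43.3 CPM in Control. In these 3 miRNAs the groups overlapped, and CIH replicate 3, which also stood apart in mmu-miR-217-5p, was the highest of all 6 libraries. Log2 fold changes were -0.08 for mmu-miR-20b-5p (95% interval -0.39 to 0.23), -0.01 for mmu-miR-363-3p (-0.32 to 0.30) and -0.10 for mmu-miR-106a-5p (-0.46 to 0.26), with adjusted p-values of 0.92, 0.998 and 0.92 from edgeR in that order. Without CIH replicate 2 all 3 changed sign, to 0.01 for mmu-miR-20b-5p, 0.02 for mmu-miR-363-3p and 0.03 for mmu-miR-106a-5p. Without CIH replicate 3 they were -0.19, -0.08 and -0.21 in the same order.

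mmu-miR-18b-5p had the lowest p of the 10 members and the lowest log2 fold change. It had 11, 14 and 14 counts in CIH, against 21, 17 and 19 counts in Control. In CPM these were 1.38, 1.91 and 2.29 in CIH, against 2.73, 3.09 and 2.82 in Control, and every CIH library lay below every Control library. The log2 fold change was -0.64 (standard error 0.29, unadjusted p = 0.052 and adjusted p = 0.64 from edgeR), and 39 miRNAs of the table had a smaller p. Its 96 counts over 6 libraries give a coefficient of variation of 25% from counting error alone, as large as that among the CIH libraries (24.5%) and larger than that among the Control libraries (6.44%). Without CIH replicate 3 it had a log2 fold change of -0.80 (unadjusted p = 0.036) and without CIH replicate 1 of -0.45 (unadjusted p = 0.20), both from edgeR. Its near copy mmu-miR-18a-5p had 69, 62 and 69 counts in CIH and 77, 44 and 60 in Control, and its 95% interval ran from -0.37 to 0.50 around a log2 fold change of 0.07.

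**Figure D2:**
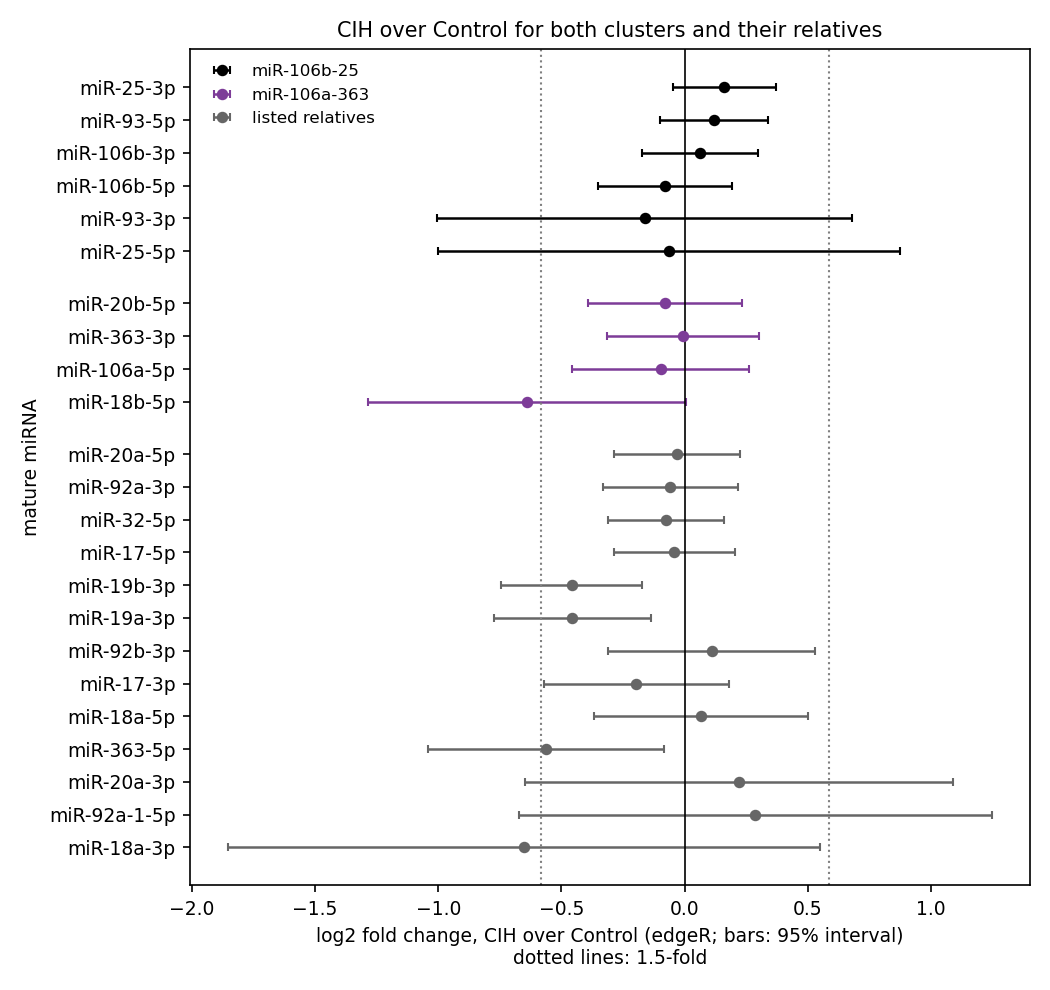
Log2 fold change of CIH over Control with its 95% interval from edgeR for the 6 members of the miR-106b-25 cluster (black), the 4 members of the miR-106a-363 cluster (purple) and 13 listed relatives (grey), ordered by level within each block. The intervals of all 10 members include 0, that of mmu-miR-18b-5p reaching from -1.28 to 0.01, while those of mmu-miR-19b-3p, mmu-miR-19a-3p and mmu-miR-363-5p lie below 0.

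Summed over its 6 measured products, the miR-106b-25 cluster had 3020, 2941 and 2954 CPM in CIH, against 2778, 2652 and 2764 CPM in Control. The 4 members of the miR-106a-363 cluster summed to 184, 166 and 214 CPM in CIH, against 204, 200.4 and 188 CPM in Control. The first sum was higher in every CIH library and the second overlapped. The second sum leaves out mmu-miR-19b-3p and mmu-miR-92a-3p, whose part from this cluster is not known, so it is not the full output of the cluster. The miR-106a-363 sum came to 6.09%, 5.63% and 7.25% of the miR-106b-25 sum in CIH, and to 7.35%, 7.55% and 6.79% in Control. These percentages do not depend on the scaling of libraries, and their ranges overlapped through CIH replicate 3 and Control replicate 3. mmu-miR-25-3p and mmu-miR-93-5p make up most of the first sum, so it repeats what was said of them, and no test was made of a sum.

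**Figure D3:**
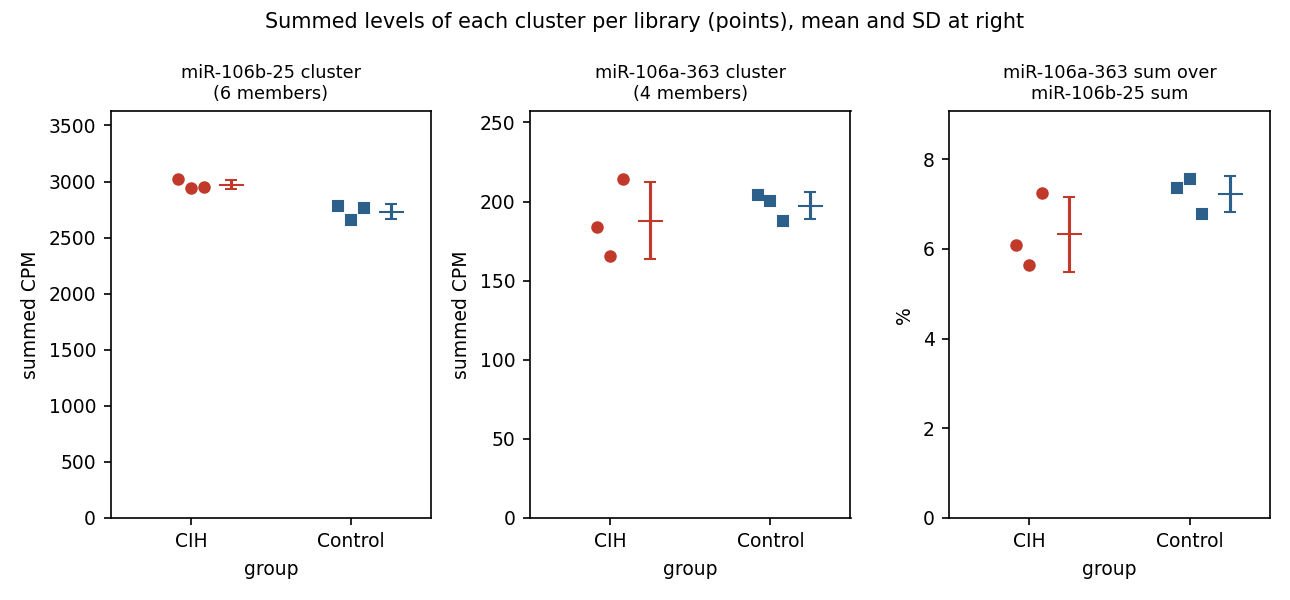
Summed CPM of the miR-106b-25 cluster (left) and of the miR-106a-363 cluster (middle), and the second as a percentage of the first (right), for each CIH library (circles) and Control library (squares), with the mean and SD of each group. The miR-106b-25 sum was 2972 ± 42.5 CPM in CIH and 2731 ± 68.7 CPM in Control, and the miR-106a-363 sum was 188 ± 24.5 CPM in CIH and 197 ± 8.69 CPM in Control (SD, n = 3 each). The miR-106a-363 sum leaves out mmu-miR-19b-3p and mmu-miR-92a-3p.

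The hairpins of the miR-106b-25 cluster used their arms very differently, and in each of the 3 the groups overlapped. From miR-106b both arms were kept in near equal amounts, the 5p arm taking 48.0%, 46.6% and 49.0% of the hairpin's counts in CIH and 51.5%, 46.8% and 52.3% in Control. From miR-93 the 5p arm took 99.3% to 99.7% in the 6 libraries, and from miR-25 the 3p arm took 99.87% to 99.94%. The log2 ratio of 5p to 3p counts for miR-106b was -0.12 ± 0.068 in CIH and 0.01 ± 0.17 in Control, a difference of -0.13 (SD, n = 3 each, exact two-sided permutation test, p = 0.3, adjusted over 3 hairpins p = 0.7). For miR-93 it was 8.03 ± 0.59 in CIH and 7.70 ± 0.62 in Control (SD, n = 3 each, exact permutation p = 0.6, adjusted p = 0.7). For miR-25 it was -10.19 ± 0.46 in CIH and -9.93 ± 0.54 in Control (SD, n = 3 each, exact permutation p = 0.7, adjusted p = 0.7). With 3 libraries against 3 this test cannot give a p below 0.1. For comparison, the 5p arm of miR-17 took 97.6% to 98.3% of its hairpin's counts.

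**Figure D4:**
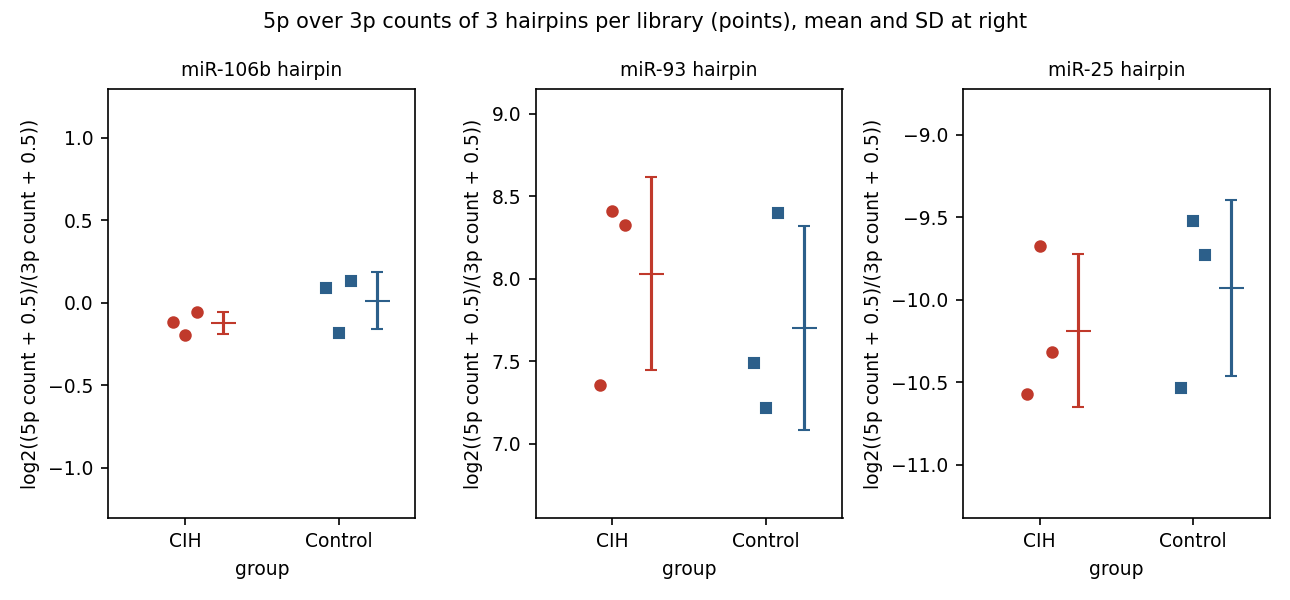
Log2 ratio of 5p to 3p counts, with 0.5 added to each, for the hairpins miR-106b, miR-93 and miR-25 in each CIH library (circles) and Control library (squares), with the mean and SD of each group. The 3 panels have the same height in log2 units around different centres, near 0 for miR-106b, 8 for miR-93 and -10 for miR-25, and the groups overlap in each.

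The clusters were then set beside the other sources of the same seeds. The 6 miRNAs with the seed AAAGUGC summed to 2765 ± 145 CPM in CIH and 2747 ± 189.6 CPM in Control (SD, n = 3 each). The miR-106b-25 cluster supplied 41.6% ± 0.77 of this in CIH and 39.6% ± 1.17 in Control, and the miR-106a-363 cluster 4.87% ± 0.50 in CIH and 5.24% ± 0.44 in Control. The miR-17-92 cluster, through mmu-miR-17-5p and mmu-miR-20a-5p, supplied the remaining 53.5% ± 0.27 in CIH and 55.2% ± 1.60 in Control. Single libraries overlapped for each of the 3 sources. The 5 miRNAs with the seed AUUGCAC summed to 3153 ± 45.2 CPM in CIH and 3054 ± 100.4 CPM in Control. Of the 2 entries of mmu-miR-92a-3p only the larger (36157 counts over the 6 libraries) is in this sum. Counting the other (7672) as well would lower the shares of the rest. mmu-miR-25-3p alone held 51.3%, 52.0% and 48.9% of the sum in CIH and 47.0%, 44.7% and 49.1% in Control. mmu-miR-363-3p held 1.52% to 1.75% over all 6 libraries, not counting mmu-miR-92a-3p made from the miR-106a-363 cluster. Within the seed AAGGUGC, mmu-miR-18b-5p held 13.8%, 18.4% and 16.9% in CIH and 21.4%, 27.9% and 24.1% in Control, without overlap. This share does not depend on scaling, but rests on the few counts given above.

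**Figure D5:**
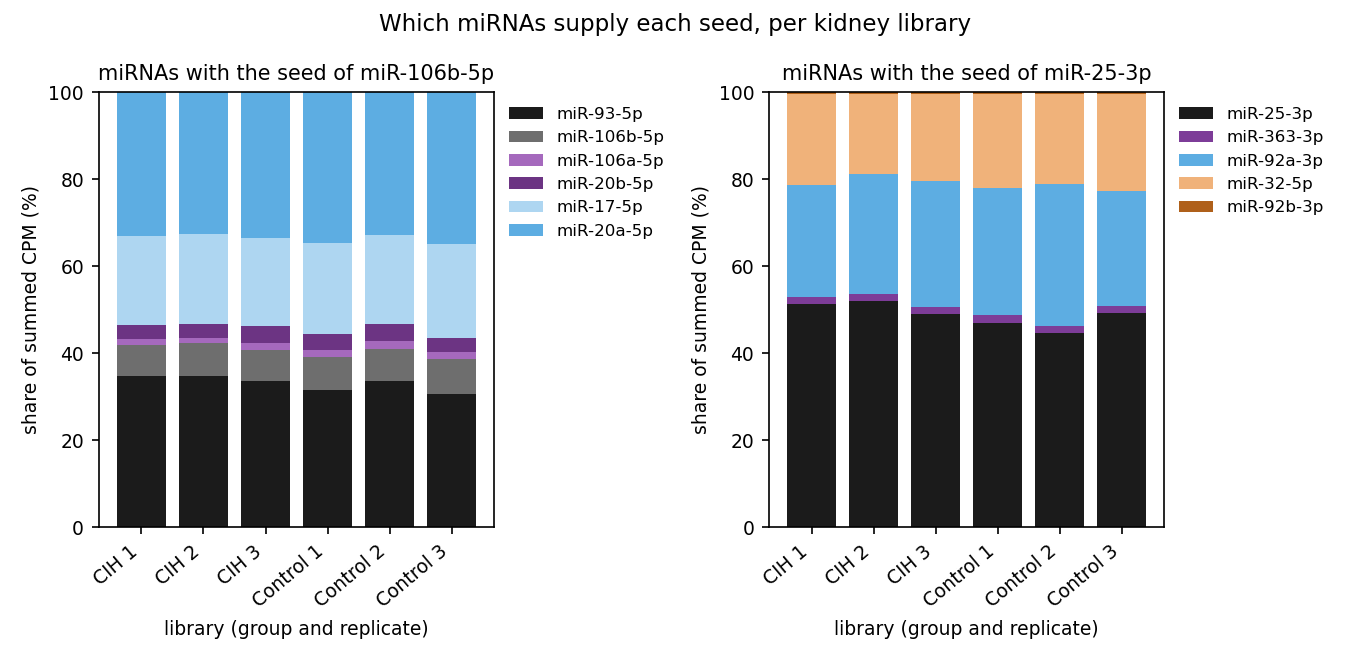
Share of the summed CPM that each miRNA holds among the 6 with the seed of miR-106b-5p (left) and the 5 with the seed of miR-25-3p (right), 1 bar for each library. Only the larger of the 2 entries of mmu-miR-92a-3p is counted on the right. Black and grey mark members of the miR-106b-25 cluster, purple members of the miR-106a-363 cluster, light and mid blue on the left mmu-miR-17-5p and mmu-miR-20a-5p, mid blue on the right mmu-miR-92a-3p, which both the miR-17-92 and the miR-106a-363 clusters encode, and orange or brown other loci. The purple bands are thin, 4.42% to 5.70% for mmu-miR-106a-5p and mmu-miR-20b-5p on the left and 1.52% to 1.75% for mmu-miR-363-3p on the right, where any mmu-miR-92a-3p from chromosome X is not included.

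Of the miR-17-92 cluster, the third set of paralogs, 10 of 12 listed products were in the table. None was called at an adjusted p under 0.05, 2 were lower in CIH at an unadjusted p under 0.05 and 0 were higher, against 7.88% of all miRNAs in both directions. The 3 most abundant had log2 fold changes of -0.03 for mmu-miR-20a-5p, -0.06 for mmu-miR-92a-3p and -0.04 for mmu-miR-17-5p. The 2 lower ones were the miR-19 pair, which has the seed GUGCAAA.
mmu-miR-19a-3p: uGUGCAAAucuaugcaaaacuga
mmu-miR-19b-3p: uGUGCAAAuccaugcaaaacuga

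mmu-miR-19b-3p is made both from the miR-17-92 cluster and from Mir19b-2 within the miR-106a-363 cluster, and its mature sequence is the same from both. It had 84.0, 85.5 and 99.0 CPM in CIH, against 119.8, 116.5 and 132.5 CPM in Control, without overlap. The log2 fold change was -0.46 (standard error 0.13, unadjusted p = 0.0050 and adjusted p = 0.58 from edgeR), the third smallest p of the table. mmu-miR-19a-3p, which the miR-106a-363 cluster does not encode, had 28.2, 25.8 and 29.6 CPM in CIH, against 40.1, 39.4 and 35.2 CPM in Control. Its log2 fold change was also -0.46 (standard error 0.14, unadjusted p = 0.0096 and adjusted p = 0.58 from edgeR). The sequences of the pair differ by the single substitution U11C, so they are not independent measurements if reads were shared between them. In the table mmu-miR-19b-3p is listed at both precursors with nearly the same counts (4358 and 4352 over the 6 libraries). mmu-miR-92a-3p, likewise encoded in both clusters, is listed with 36157 and 7672 counts. The table does not say which entry belongs to which hairpin, so the share of chromosome X in either was not estimated.

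Of the 6 other listed products of the miR-106a-363 cluster, 1 was in the table. mmu-miR-363-5p, the passenger strand of miR-363, had 33, 24 and 21 counts in CIH, against 38, 29 and 40 counts in Control. In CPM every CIH library was below every Control library, with 3.62 ± 0.46 CPM in CIH and 5.38 ± 0.51 CPM in Control (SD, n = 3 each). The log2 fold change was -0.56 (standard error 0.22, unadjusted p = 0.026 and adjusted p = 0.58 from edgeR), and it was between -0.68 and -0.49 with 1 library left out, where the unadjusted p ran from 0.030 to 0.080. The highest of these was without Control replicate 3, and DESeq2 gave an unadjusted p of 0.11. Its share of the hairpin's counts was 6.68% ± 1.13 in CIH and 9.58% ± 1.51 in Control. This share was computed after the values had been seen and was not tested. Of the listed seed relatives at other loci, 2 of 3 were in the table, mmu-miR-32-5p at a log2 fold change of -0.08 (95% interval -0.31 to 0.16) and mmu-miR-92b-3p at 0.11 (-0.31 to 0.53).

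The profile of the leading member of each cluster over the 6 libraries was also compared with those of miRNAs outside the 10 members. Nearness was the root mean square difference of log2(CPM + 0.5) values, each centred on its own mean, over 295 miRNAs at a mean of at least 10 CPM. Nearest to mmu-miR-25-3p were mmu-miR-1839-5p (0.038), mmu-miR-21c (0.060) and mmu-miR-378a-3p (0.061), where the median miRNA was at 0.19. Nearest to mmu-miR-20b-5p were mmu-miR-451a (0.068), mmu-miR-331-3p (0.068) and mmu-miR-142a-3p (0.070), where the median was 0.21. mmu-miR-451a is on the erythroid marker list and mmu-miR-142a-3p on the leukocyte list. No other marker of either list was among the nearest, and a part of blood cells in this was not tested. The profiles were not scaled to equal spread, so miRNAs that vary little lie near each other whatever their pattern. A distance under the median thus need not mean a shared pattern. Over only 6 libraries that share depth and scaling, the comparison is a description.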

How the data were processed

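The submitters' processing notes name cutadapt and Bowtie, and the authors deposited raw read counts for 584 entries of 495 mature miRNAs. Their versions, the genome build, the miRBase release and the handling of multiply matching reads were not stated in the sources used here. Of the 44 names with several precursor entries, only the entry with most counts over the 6 libraries entered the tests, levels and shares. Groups were taken from the sample titles, and 0 columns were left unmapped.

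Counts were analysed with edgeR 4.0.16 in R 4.3.3 (TMM, quasi-likelihood test, CIH over Control as the only term) on miRNAs counted in 3 libraries or more, which were all 495. The common biological coefficient of variation was 15.7%. P-values were adjusted by Benjamini-Hochberg over all 495, and 95% intervals used the fit's standard error and t distribution. Arm ratios used log2 counts with 0.5 added and an exact permutation test (scipy 1.17.1). Alternatives were DESeq2 1.42.0, limma 3.58.1, edgeR's exact test, other scalings, filters and precursor handling, a replicate block and each library left out. The scripts were tested on simulated counts. The members and lists were chosen with earlier results of these data known. The text names the 10 members, the listed relatives with the 3 highest levels or an unadjusted p under 0.05, and the 3 nearest profiles, and mmu-miR-18a-5p, mmu-miR-363-5p and the markers mmu-miR-122-5p, mmu-miR-204-5p, mmu-miR-205-5p, mmu-miR-217-5p and mmu-miR-486a-5p were added after their values were seen. Sequences were matched by name in RefSeq (GRCm38.p6) for 413 of the 495 miRNAs. Intervals and coefficients from counting cover counting error only.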

Additional observations from a re-analysis of the deposited data

How the results depend on the processing

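Counting error alone gave a coefficient of variation of 25% for mmu-miR-18b-5p and 32.4% for mmu-miR-25-5p, at 96 and 57 counts in all. For mmu-miR-93-3p the spread between libraries exceeded counting error. Over 17 alternatives the lowest adjusted p of any member was 0.47, and 151 of 167 log2 fold changes kept their sign. Those of mmu-miR-25-3p, mmu-miR-93-5p, both arms of miR-106b and mmu-miR-18b-5p kept it in every alternative. The alternative without a filter was the main fit itself and could not change a sign. The others refit the same counts or a part of them, so they are not independent. mmu-miR-363-3p turned to 0.0038 with DESeq2 size factors, 0.0031 with the DESeq2 test, 0.052 with library totals only and 0.011 with every precursor entry kept. With 1 library left out, log2 fold changes ran from -0.080 to 0.033 for mmu-miR-363-3p, -0.40 to 0.13 for mmu-miR-25-5p, -0.65 to 0.062 for mmu-miR-93-3p, -0.21 to 0.032 for mmu-miR-106a-5p and -0.19 to 0.012 for mmu-miR-20b-5p. The cause was not tested. The 3 members under a mean of 10 CPM gave no value with that filter.

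Members at an unadjusted p under 0.05 numbered 1 in place of 0 (mmu-miR-18b-5p) with a pseudocount of 1 in limma, with entries summed, and without CIH replicate 3, a range of 0 to 1 with 1 library left out. Past the study's thresholds there was also 1 with entries summed, and 0 to 1 with 1 library left out. Over all miRNAs, 39 had an unadjusted p under 0.05, 20 at a mean of at least 10 CPM, where fewer miRNAs were tested, and 21 to 67 with 1 library left out (22 without CIH replicate 1, 21 without CIH replicate 2, 67 without Control replicate 2). With library totals only, the split of these calls was 15 higher and 15 lower in CIH, against 14 and 25 with TMM, and the log2 ratio of the miR-106b-25 sum was 0.18 in place of 0.12. Groups then did not overlap in 3 of the 10 members and 13.9% of all miRNAs. Without a filter the same 495 miRNAs were tested.

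The values showed no sign of pairing by replicate number: deviations of same-numbered libraries correlated at -0.04, -0.03 and 0.03, and not every library correlated best with its own number. Such correlations cannot show how the samples were collected or processed. With a replicate block, 0 members and 32 of all miRNAs had an unadjusted p under 0.05, and the exact permutation p of the arm differences, whose sizes a block cannot change (-0.13, 0.33 and -0.26), was 0.25 for miR-106b, 1.0 for miR-93 and 0.25 for miR-25, where 3 pairs allow no p below 0.25.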

Other observations

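Ratios between products of the Mcm7 transcript were compared within libraries. mmu-miR-25-3p had 1.61 to 1.78 times the CPM of mmu-miR-93-5p in CIH and 1.61 to 1.65 times in Control, and mmu-miR-93-5p had 4.07 to 4.55 times that of mmu-miR-106b-3p in CIH and 4.07 to 4.37 times in Control. These ratios overlapped between the groups. mmu-miR-25-3p had 8.11, 8.31 and 7.65 times the CPM of mmu-miR-106b-5p in CIH, against 6.61, 7.63 and 6.31 times in Control. All of these ratios are free of library scaling, and in the last of them CIH replicate 3 and Control replicate 2 were nearly level. The pair of mmu-miR-25-3p and mmu-miR-106b-5p was chosen after the values had been seen, and no test was made.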
